A study of Mus musculus with 12 samples.

Results

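The troponin genes examined here are the 7 listed mouse genes Tnnc1, Tnnc2, Tnni1, Tnni2, Tnnt1, Tnnt2 and Tnnt3, out of 25774 genes matched in the deposited tables. They were chosen as a named list, by symbol, and none was chosen by a measured value. All 7 were among the 13076 genes kept for testing, which reached 1 TPM in 3 or more libraries. TPM (transcripts-per-million) is a length-corrected share of all transcript estimates in a library, so levels of different genes can be set side by side on this scale.

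Poly(A) RNA was sequenced from C2C12 cells, a mouse myoblast line that forms contractile, multinucleated fibres when serum is lowered. The 4 groups held 3 libraries each. D2 siKctd10 and D2 siControl cells received 2% horse serum from 24 h after siRNA onwards, while D0 siKctd10 and D0 siControl cells were kept below confluence in 10% fetal bovine serum. All cells carried an siRNA, either 1 duplex against Kctd10, whose protein brings substrates to CUL3 ubiquitin ligases, or a non-targeting duplex (siControl). The protocols give 48 h from siRNA to harvest for every sample, which leaves the hours in low serum at D2 uncertain. Whether the 3 libraries of a group stem from independent cultures is not stated, and each p-value here reflects library-to-library spread, which may be technical. In bulk RNA, fewer differentiated cells and less RNA per differentiated cell cannot be told apart.

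Troponin is the calcium switch of the striated muscle thin filament. Troponin C binds calcium, troponin I holds actin and myosin apart until calcium arrives, and troponin T ties the complex to tropomyosin. Each subunit has paralogs named for slow muscle, fast muscle or heart, and developing skeletal muscle is known to use the cardiac troponin T gene and the troponin C gene shared by slow muscle and heart.

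The members map to 4 chromosomes of mm10. Tnnc1, the slow and cardiac troponin C, is at chr14:31208312-31211729, and Tnnc2, the fast one, at chr2:164777161-164779967. Tnni1, slow troponin I, lies at chr1:135779434-135810989, followed after 25.4 kb on the same strand by Tnnt2, cardiac troponin T, at chr1:135836354-135852260. Tnni2, fast troponin I, lies at chr7:142441808-142444410 and Tnnt3, fast troponin T, 54.4 kb further along at chr7:142498836-142516009. Tnnt1, slow troponin T, is at chr7:4504570-4516382, 1.9 kb from Tnni3, the cardiac troponin I, which is no member of the list.

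The RefSeq promoter windows of GRCm38.p6 (the build mm10) held entries for 5 of the 7 members. Tnni2 and Tnnt3 are named only. The 250 bases before the start site are shown because these genes were all higher at D2, as described further on, and each start site is also the start of a deposited transcript. For Tnnt2, another transcript, which starts downstream of this window at base 135840861, was given 60.1, 34.9 and 19.7% of the level in D2 siKctd10 libraries and 100, 100 and 0% in D2 siControl libraries. Capitals mark the matches to 4 motifs searched on both strands: the E-box CANNTG bound by MyoD-family factors, the MCAT motif CATTCC bound by TEAD factors, a MEF2-type motif (CTA and TAG with any 4 bases between), and TATAAA.
Tnnc1, chr14:31208062-31208311, plus strand: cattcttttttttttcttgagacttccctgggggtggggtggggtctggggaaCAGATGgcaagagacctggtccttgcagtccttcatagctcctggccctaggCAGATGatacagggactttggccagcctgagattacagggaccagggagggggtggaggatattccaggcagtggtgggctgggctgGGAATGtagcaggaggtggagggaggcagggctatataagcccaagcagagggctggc
Tnnc2, chr2:164779735-164779984, minus strand: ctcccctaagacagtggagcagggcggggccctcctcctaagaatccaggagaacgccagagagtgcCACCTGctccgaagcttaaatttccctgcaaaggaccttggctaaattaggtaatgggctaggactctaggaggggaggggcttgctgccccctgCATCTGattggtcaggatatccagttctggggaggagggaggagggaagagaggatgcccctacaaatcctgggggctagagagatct
Tnni1, chr1:135799171-135799420, plus strand: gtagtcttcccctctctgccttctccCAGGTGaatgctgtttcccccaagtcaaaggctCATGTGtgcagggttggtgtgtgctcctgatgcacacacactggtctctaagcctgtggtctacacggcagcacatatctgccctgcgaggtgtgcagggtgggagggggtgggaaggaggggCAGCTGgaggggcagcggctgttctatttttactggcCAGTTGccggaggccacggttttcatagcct
Tnnt1, chr7:4515976-4516225, minus strand: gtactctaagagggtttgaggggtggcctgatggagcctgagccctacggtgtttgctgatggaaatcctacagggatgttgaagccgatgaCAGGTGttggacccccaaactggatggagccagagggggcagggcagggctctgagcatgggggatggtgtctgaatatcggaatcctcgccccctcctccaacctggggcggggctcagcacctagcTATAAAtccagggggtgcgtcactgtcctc
Tnnt2, chr1:135836084-135836333, plus strand: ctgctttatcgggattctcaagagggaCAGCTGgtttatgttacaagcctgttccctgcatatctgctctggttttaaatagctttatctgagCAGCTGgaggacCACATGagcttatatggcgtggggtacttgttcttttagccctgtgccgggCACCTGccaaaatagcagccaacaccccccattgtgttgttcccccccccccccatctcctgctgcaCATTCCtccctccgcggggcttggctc

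All 5 windows held an E-box, with 13 matches in all, of which Tnni1 and Tnnt2 held 4 each, Tnnc1 and Tnnc2 held 2 each and Tnnt1 held 1. Among all 32841 RefSeq windows of the same length, 66.2% held an E-box. The MCAT letters were found in Tnnt2, from base -27 to base -22 before the start, and on the other strand in Tnnc1, from base -58 to base -53, against 12.6% of all windows. TATAAA was found once, in Tnnt1 from base -30 to base -25, against 12.4% of all windows. The MEF2-type letters were in none of the 5 windows and in 3.2% of all windows. No match overlapped one of another motif. A match describes letters and shows no binding.

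Kctd10 itself was lower in every library that received its siRNA. Its level was 34.3, 26.8 and 35.1 TPM in D2 siKctd10 libraries, against 285, 276 and 289 TPM in D2 siControl libraries. At D0 it was 24.8, 24.5 and 20.0 TPM in siKctd10 libraries, against 272, 258 and 269 TPM in siControl libraries. The mean left after knockdown was 11.3% at D2 and 8.66% at D0. The full siRNA sense strand given in the design text matched transcripts of 1 gene in GENCODE, Kctd10, across an exon junction (chr5:114367390-114368345, minus strand, GRCm38). None of 77 annotated transcripts of the troponin members held this full match. Partial matches were not searched, and effects of this 1 duplex on unintended targets were not tested. The target is shown with the bases after the junction in capitals.
Kctd10 target: ccagCAATTCTGACGATAA

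Libraries held an estimated 12511000 to 18082000 read pairs. The first principal component, with 41.0% of the variance, followed the day. On the second, with 10.4%, the siRNA groups lay apart, with all siControl libraries at 16.26 to 26.25 and all siKctd10 libraries below 0. Both siKctd10 libraries numbered 3 lay farthest out on the siKctd10 side, at -42.4 each, against -20.3 to -1.17 for the other siKctd10 libraries. Values without these libraries numbered 3 are therefore given beside the levels and knockdown results that rest on them. All 8 markers of the skeletal muscle lineage were found, with summed levels of 2180 to 2540 TPM in D2 siKctd10 libraries, 2760 to 2880 TPM in D2 siControl libraries, 723 to 860 TPM in D0 siKctd10 libraries and 711 to 730 TPM in D0 siControl libraries. Of 6 smooth muscle markers, Myh11 was under 1 TPM in all libraries, while the sum of the list was 2480 to 3150 TPM in D2 siKctd10 libraries against 1370 to 1700 TPM in D2 siControl libraries, and 1600 to 1870 TPM in D0 siKctd10 libraries against 642 to 724 TPM in D0 siControl libraries. Most of this sum was 1 gene, Acta2. Its mean was 2480 TPM in D2 siKctd10 and 1310 TPM in D2 siControl libraries. At D0 it was 1560 TPM in siKctd10 and 600 TPM in siControl libraries. Of 8 cardiomyocyte markers, Myl7 and Tbx5 were listed at 0 in all libraries and Nppa and Tnni3 stayed under 1 TPM, and the list summed to 29.0 to 34.1 TPM in D2 siKctd10 libraries against 39.6 to 42.8 TPM in D2 siControl libraries, and to 6.28 to 30.0 TPM in D0 siKctd10 libraries against 28.4 to 30.6 TPM in D0 siControl libraries. All 4 adipocyte markers were listed at 0, the sums over all libraries reached at most 0.0956 TPM for neurons, 1.65 TPM for endothelium and 2.55 TPM for leukocytes, and for osteoblasts they were 23.1 to 61.4 TPM with 3 of 4 markers under 1 TPM. The part of these lists in the troponin results was not tested.

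Differentiation was accompanied by higher levels of every troponin gene. All 7 members were higher at D2 than at D0 in siKctd10 cells and all 7 in siControl cells (limma, adjusted p under the threshold of 0.05), where 23.1% of all genes were called higher in siKctd10 cells and 21.4% in siControl cells. No library of D2 overlapped a D0 library of the same siRNA for any member. The middle log2 fold change of the 7 was 4.30 in siKctd10 cells, against 0.118 for all genes, and 5.22 in siControl cells, against 0.091 for all genes. All fold changes were computed from log2(TPM + 1), and this pseudocount shrinks them for genes at low TPM and sets the size for members listed at 0 in D0 libraries. Both knockdown and differentiation comparisons use the same D2 siControl libraries, so their values are set side by side and not correlated.

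**Figure D1:**
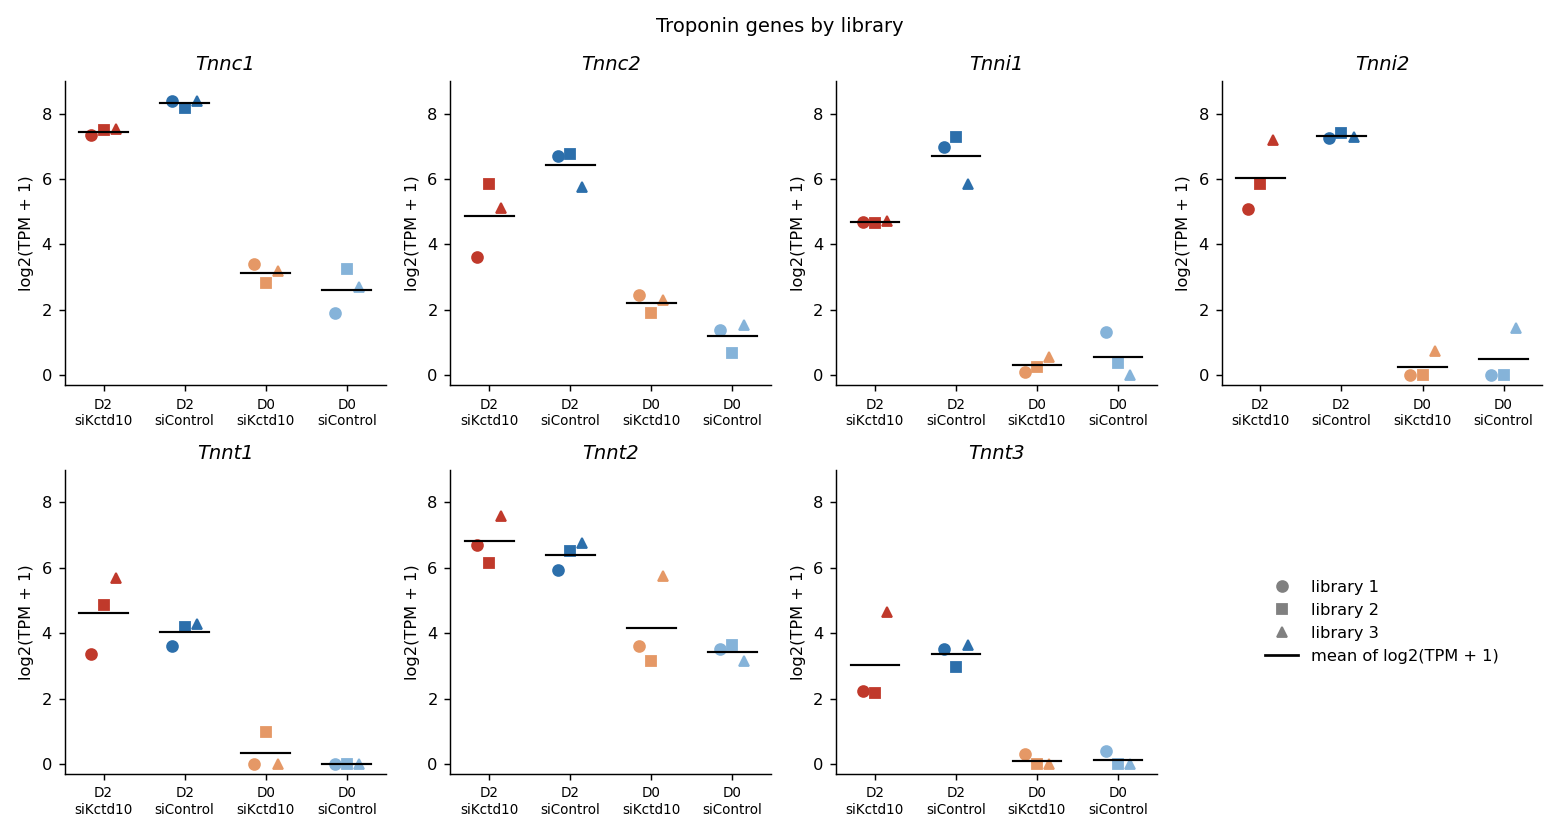
Level of each troponin gene in every library, as log2(TPM + 1), with 3 libraries per group (circle, square and triangle for libraries 1 to 3) and the group mean as a black line. All D2 libraries lie above the D0 libraries of the same siRNA, and at D2 the Tnni1, Tnnc1 and Tnni2 libraries of siKctd10 lie below those of siControl.

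RNA estimates of both calcium-binding genes were above 0 before differentiation. Tnnc1 had 162, 179 and 184 TPM in D2 siKctd10 libraries, against 9.59, 6.03 and 8.17 TPM in D0 siKctd10 libraries, and the limma log2 fold change was 4.32 (SE 0.29, adjusted p = 3.1e-06). In siControl cells Tnnc1 had 334, 289 and 336 TPM at D2, against 2.71, 8.54 and 5.56 TPM at D0, and the limma log2 fold change was 5.70 (SE 0.29, adjusted p = 4.6e-07). It was at least 2.71 TPM in all D0 libraries, and at D2 it had the highest mean of the 7 members in both siRNA groups. In D0 siControl libraries its listed coverage lay only in the 3'-most exon, at 11.7, 34.0 and 24.5 reads per base. Tnnc2, the fast paralog, had 11.2, 56.4 and 33.8 TPM in D2 siKctd10 libraries, against 4.52, 2.73 and 3.92 TPM in D0 siKctd10 libraries (log2 fold change 2.64, SE 0.52, limma adjusted p = 0.003). In siControl cells it had 103, 109 and 53.6 TPM at D2, against 1.61, 0.607 and 1.88 TPM at D0 (log2 fold change 5.22, SE 0.52, limma adjusted p = 3.9e-05). The first D2 siKctd10 library was the lowest of the 6 D2 libraries for Tnnc2.

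The inhibitory subunits were near 0 at D0. Tnni1 had 24.7, 24.2 and 25.1 TPM in D2 siKctd10 libraries, against 0.0757, 0.191 and 0.458 TPM in D0 siKctd10 libraries. In D0 siKctd10 libraries 1 and 2 the value lay wholly on a separate upstream transcript. The transcript that held nearly all of the D2 level was listed at 0 there. In siControl cells it had 124, 156 and 56.8 TPM at D2, against 1.48, 0.284 and 0 TPM at D0. The log2 fold change was 4.38 (SE 0.40, limma adjusted p = 2.1e-05) in siKctd10 cells and 6.15 (SE 0.40, limma adjusted p = 2e-06) in siControl cells. Tnni2, fast troponin I, had 33.0, 56.9 and 146 TPM in D2 siKctd10 libraries and was listed at 0, 0 and 0.672 TPM in D0 siKctd10 libraries. In siControl cells it had 153, 170 and 154 TPM at D2 and was listed at 0, 0 and 1.74 TPM at D0. Both comparisons passed (limma adjusted p = 2.7e-05 in siKctd10 cells and 7.8e-06 in siControl cells). Cardiac troponin I, Tnni3, was listed at 0 in all D0 libraries and reached at most 0.799 TPM in 1 D2 siKctd10 library and 0.548 TPM in 1 D2 siControl library.

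Among the tropomyosin-binding subunits the cardiac gene had the highest level in each D0 library, and the slow and fast genes were under 1 TPM there. Tnnt2 had 103, 70.4 and 191 TPM in D2 siKctd10 libraries, against 11.1, 7.88 and 52.7 TPM in D0 siKctd10 libraries (log2 fold change 2.65, SE 0.61, limma adjusted p = 0.0074). In siControl cells it had 60.6, 89.5 and 107 TPM at D2, against 10.5, 11.3 and 7.87 TPM at D0 (log2 fold change 2.97, SE 0.61, limma adjusted p = 0.004). Both siKctd10 libraries numbered 3 held the highest Tnnt2 value of their day. Tnnt1, slow troponin T, had 9.23, 28.2 and 50.2 TPM in D2 siKctd10 libraries and was listed at 0, 0.984 and 0 TPM in D0 siKctd10 libraries. In siControl cells Tnnt1 had 11.2, 17.2 and 18.3 TPM at D2 and was listed at 0 in all 3 D0 libraries, so no fold is given. Tnnt3, fast troponin T, had 3.69, 3.49 and 24.2 TPM in D2 siKctd10 libraries, against 0.237, 0 and 0 TPM in D0 siKctd10 libraries. In siControl cells it had 10.6, 6.84 and 11.4 TPM at D2, against 0.303, 0 and 0 TPM at D0. The adjusted limma p was 0.00014 for Tnnt1 and 0.0027 for Tnnt3 in siKctd10 cells, and 0.0002 for Tnnt1 and 0.0014 for Tnnt3 in siControl cells. Without both siKctd10 libraries numbered 3 the D2 over D0 log2 fold change in siKctd10 cells was 3.06 for Tnnt2, 3.62 for Tnnt1 and 2.05 for Tnnt3, and all 7 members still passed (limma adjusted p of at most 0.03).

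The order of the members by mean TPM differed between the days. In D2 siKctd10 libraries the order was Tnnc1 at 175, Tnnt2 at 122, Tnni2 at 78.7, Tnnc2 at 33.8, Tnnt1 at 29.2, Tnni1 at 24.7 and Tnnt3 at 10.5 TPM, and the libraries of every pair of neighbours overlapped. In D2 siControl libraries it was Tnnc1 at 320, Tnni2 at 159, Tnni1 at 112.5, Tnnc2 at 88.6, Tnnt2 at 85.7, Tnnt1 at 15.6 and Tnnt3 at 9.60 TPM, with no overlap between Tnnc1 and Tnni2 or between Tnnt2 and Tnnt1. In D0 siKctd10 libraries Tnnt2 came first at 23.9 TPM, then Tnnc1 at 7.93 and Tnnc2 at 3.72 TPM. In D0 siControl libraries the same 3 led, with Tnnt2 at 9.91, Tnnc1 at 5.60 and Tnnc2 at 1.37 TPM. The libraries of Tnnt2 and Tnnc1 overlapped in both D0 groups, and those of Tnnc1 and Tnnc2 did not. Without library 3 the D2 siKctd10 means were 170.2 TPM for Tnnc1, 86.7 for Tnnt2, 44.9 for Tnni2, 33.8 for Tnnc2, 24.4 for Tnni1, 18.7 for Tnnt1 and 3.59 for Tnnt3, with Tnni1 now ahead of Tnnt1. Without library 3 the D0 siKctd10 mean of Tnnt2 was 9.48 TPM, still the highest of the 7. The order also depended on the measure: by the 3'-most exon, Tnnt2 was at 226.5 and Tnnc1 at 207 in D2 siKctd10 libraries, and Tnnc1 at 280 and Tnnt2 at 260 in D2 siControl libraries. Over the exons above 0 in all 6 D2 libraries, Tnnt2 was at 163 in D2 siKctd10 libraries and at 199 in D2 siControl libraries, where it came after Tnnc1 at 403 and Tnni2 at 222.

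After knockdown at D2, slow troponin I was the 1 member past the threshold. Tnni1 was lower, with a limma log2 fold change of -2.03 (SE 0.40, 95% interval -2.91 to -1.14, adjusted p = 0.019), and the siKctd10 libraries, at 24.2 to 25.1 TPM, did not overlap the siControl libraries, at 56.8 to 156 TPM. That is 1 of 7 members called lower, where 1.92% of all genes were. Over all genes 370 were higher and 251 lower, a split that median-ratio scaling turned to 265 higher and 407 lower, with Tnni1 still the 1 member called. The middle log2 fold change of the 7 was -0.868, against 0.079 for all genes, with 5 values negative and 2 positive. Of the 5, Tnnt3 was negative on the log scale, while its mean TPM was 10.5 in siKctd10 libraries and 9.60 in siControl libraries. Without any 1 of 5 D2 libraries Tnni1 no longer passed: adjusted p was 0.062 without siKctd10 library 1, 0.061 without library 2 and 0.059 without library 3, and 0.074 without siControl library 1 and 0.067 without library 2. Without siControl library 3, the lowest of its group, it was 0.0088 with a log2 fold change of -2.45. The call was also lost with a pseudocount of 0.1, at a log2 fold change of -2.06 (limma adjusted p = 0.24). The D0 libraries, near 0 for Tnni1, enter the shared spread of that fit, and a smaller pseudocount widens differences between values near 0. The call was lost too when only the D2 groups were fitted (limma adjusted p = 0.071), where Tnnc1 was the member called.

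**Figure D2:**
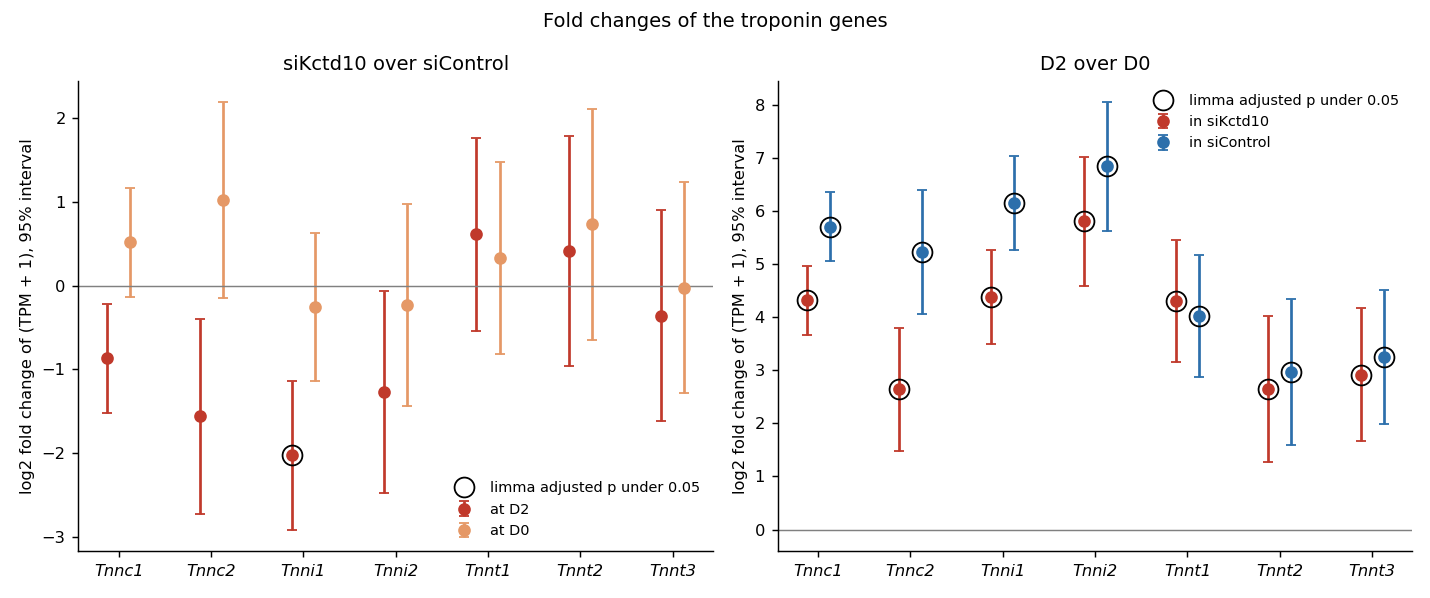
Limma log2 fold changes of (TPM + 1) with 95% intervals for the 7 members, for siKctd10 over siControl at D2 and D0 (left) and for D2 over D0 in siKctd10 and siControl cells (right). Black rings mark limma adjusted p under 0.05: only Tnni1 at D2 on the left, at -2.03, and all 14 values on the right.

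The other inhibitory and calcium-binding members did not pass at D2 in this fit. Tnnc1 had 162 to 184 TPM in siKctd10 libraries and 289 to 336 TPM in siControl libraries, with no overlap, and its log2 fold change was -0.868 (SE 0.29, 95% interval -1.52 to -0.216, limma adjusted p = 0.14). Without D0 siControl library 1, which enters the shared estimate of spread, the adjusted p was 0.033. Tnnc1 also passed with voom (log2 fold change -0.951, limma adjusted p = 0.011), with a pseudocount of 5 (limma adjusted p = 0.027) and when only the D2 groups were fitted (limma adjusted p = 0.02). For Tnnc2 the log2 fold change was -1.56 (SE 0.52, 95% interval -2.73 to -0.395, limma adjusted p = 0.13), and its groups overlapped. Tnni2 was 33.0 to 146 TPM in siKctd10 libraries, against 153 to 170 TPM in siControl libraries, with no overlap, and the limma log2 fold change was -1.27 (SE 0.54, 95% interval -2.48 to -0.065, adjusted p = 0.23). Library 3 of siKctd10, at 146 TPM, was close to the siControl range, and the other siKctd10 libraries were well below it.

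The troponin T genes gave wide intervals around 0 at D2. The log2 fold change was 0.611 for Tnnt1 (95% interval -0.539 to 1.76, limma adjusted p = 0.56), 0.416 for Tnnt2 (-0.959 to 1.79, limma adjusted p = 0.76) and -0.359 for Tnnt3 (-1.62 to 0.899, limma adjusted p = 0.78). Library 3 of siKctd10 held the highest of the 6 D2 values for all 3 genes, at 50.2 TPM for Tnnt1, 191 TPM for Tnnt2 and 24.2 TPM for Tnnt3. Without it Tnnt3 was lower, with a log2 fold change of -1.18 (limma adjusted p = 0.031), and without siKctd10 library 1 or library 2 its log2 fold change was 0.035 or 0.067. Without both siKctd10 libraries numbered 3, the log2 fold change was -1.18 for Tnnt3 (limma adjusted p = 0.04), 0.089 for Tnnt1, 0.029 for Tnnt2 and -2.04 for Tnni1 (limma adjusted p = 0.073).

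At D0 none of the 7 members passed, where 2.45% of all genes were called. The log2 fold changes ran from -0.257 for Tnni1 to 1.02 for Tnnc2, and the smallest adjusted p was 0.38 (limma, Tnnc2). Tnnc2 had 2.73 to 4.52 TPM in siKctd10 libraries and 0.607 to 1.88 TPM in siControl libraries, the 1 member whose D0 groups did not overlap. At an unadjusted p under 0.05 there was also none among the 7 in this comparison. The interaction of day and siRNA, which compares the knockdown difference at D2 with that at D0, called none of the 7, where 0.742% of all genes were called. Its estimate was -2.58 (SE 0.74, limma adjusted p = 0.2) for Tnnc2, -1.77 (SE 0.56, limma adjusted p = 0.27) for Tnni1 and -1.39 (SE 0.41, limma adjusted p = 0.23) for Tnnc1. The unadjusted limma p was 0.006 for Tnnc2, 0.011 for Tnni1 and 0.0075 for Tnnc1, and the other 4 had unadjusted p of at least 0.21.

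Exon coverage in the deposited estimates was uneven. In multi-exon transcripts with a mean of at least 50 TPM, the share of exons listed at 0 was averaged over transcripts. This average was 42.5 to 47.6% in each library, counting transcripts above 0 there, and which exons were at 0 changed between replicates. In D2 siKctd10 library 3 the Tnnt3 exon at chr7:142511257-142511373 was listed with 206 reads per base and at 0 in the other 11 libraries, while the 3'-most exon of Tnnt3 had 28.7 reads per base there, against 28.9 to 53.9 in D2 siControl libraries. The Tnnt1 exon at chr7:4514337-4514379 was listed with 727 reads per base in that library, at 0 in the other D2 siKctd10 libraries, and at 0, 132 and 201 reads per base in D2 siControl libraries. The Tnnt2 exon at chr1:135847981-135848097 had 1388 reads per base in D2 siKctd10 library 3 and 511 in D0 siKctd10 library 3, and was at 0 in the other 5 D0 libraries. At D2 it was also listed in siKctd10 library 1, at 443 reads per base, and in siControl library 3, at 403. StringTie also moved Tnnt2 between transcripts: it gave TPM of at least 1 to 3 of 13 Tnnt2 transcripts, and in D2 siControl it put all of the level on 1 of them in libraries 1 and 2 and on another in library 3.

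**Figure D3:**
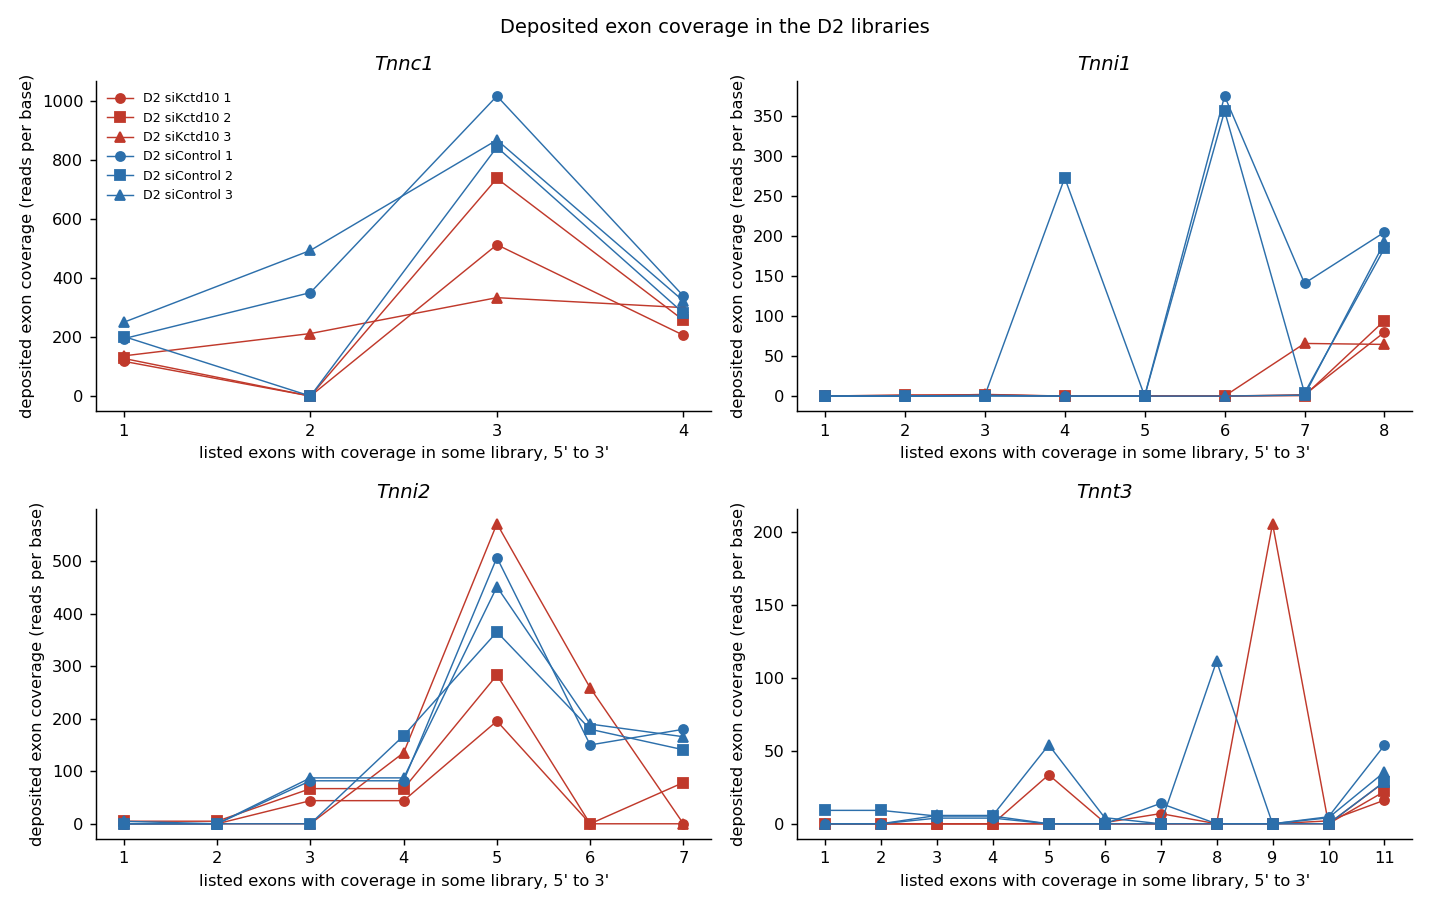
Deposited coverage (reads per base) of each listed exon of Tnnc1, Tnni1, Tnni2 and Tnnt3 in the 3 D2 siKctd10 and 3 D2 siControl libraries, exons in order from 5' to 3' and only those above 0 in some library; the first 3 Tnni1 exons belong to a separate upstream transcript. The 3'-most exon of Tnni1 has 64.5 to 94.2 reads per base in siKctd10 and 184.5 to 205 in siControl libraries, while inner exons switch between 0 and high values.

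With coverage taken over exons above 0 in all 6 D2 libraries and put on the TPM scale, an alternative chosen after seeing the data, the replicates of several members lay closer together. Leaving out exons listed at 0 can by itself bring replicates closer. The exons left were 1 for Tnnt3, which is its 3'-most exon, 3 for Tnnc1 and 2 for each other member. Tnni1 had 54.4, 53.2 and 55.0 in siKctd10 libraries, against 161, 144 and 126 in siControl libraries, and the limma log2 fold change was -1.38 (SE 0.10, adjusted p = 0.0063). Tnnc1 had 232, 256 and 221 in siKctd10 libraries, against 410, 415 and 384 in siControl libraries, and the limma log2 fold change was -0.768 (SE 0.075, adjusted p = 0.014). These 2 of 7 members were called lower, where 1.57% of all genes were by this measure. Tnnc2 had 39.6, 74.3 and 59.9 in siKctd10 libraries, against 144, 125 and 189 in siControl libraries, with no overlap (log2 fold change -1.41, SE 0.27, limma adjusted p = 0.066). Tnnt3 had 14.2, 16.1 and 24.4 in siKctd10 libraries, against 45.6, 28.9 and 30.1 in siControl libraries, also with no overlap (log2 fold change -0.905, SE 0.27, limma adjusted p = 0.16). Tnnt2 had 142, 183 and 164 in siKctd10 libraries, against 169, 195 and 234 in siControl libraries, and its log2 fold change of -0.282 (limma adjusted p = 0.37) had the opposite sign to that by TPM. Tnni2 still spread widely, at 92.9 to 267 in siKctd10 libraries against 201 to 249 in siControl libraries. Tnnt1 did so too, at 18.2 to 54.2 in siKctd10 libraries against 21.4 to 28.3 in siControl libraries.

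Coverage of the 3'-most exon alone, also chosen after seeing the data, called none of the 7 at D2, where 1.63% of all genes were called lower. Slow troponin T had 26.0, 23.2 and 24.6 by this measure in siKctd10 libraries, against 34.3, 41.8 and 31.3 in siControl libraries (log2 fold change -0.516, SE 0.14, limma adjusted p = 0.08), the opposite sign to its TPM. Tnni1 had 70.7, 69.6 and 56.6 in siKctd10 libraries, against 174, 185 and 163 in siControl libraries, with a log2 fold change of -1.40 and a limma adjusted p of 0.27. This fit took in all 12 libraries and the shared-exon fit only the 6 D2 libraries, so their SE, adjusted p and calls are not alike. Tnnt3 had the same D2 values in both, with an SE of 0.43 here (limma adjusted p = 0.32) and 0.27 over shared exons (limma adjusted p = 0.16). For Tnni2 the 3'-most exon was listed at 0 in siKctd10 libraries 1 and 3 and at 57.1 in library 2, against 152, 141 and 140.5 in siControl libraries. All 7 members had a lower siKctd10 mean at D2 by the 3'-most exon, as 6 of 7 did over the shared exons and 4 of 7 did by TPM. These measures rest partly on the same exons, so their counts are not independent.

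**Figure D4:**
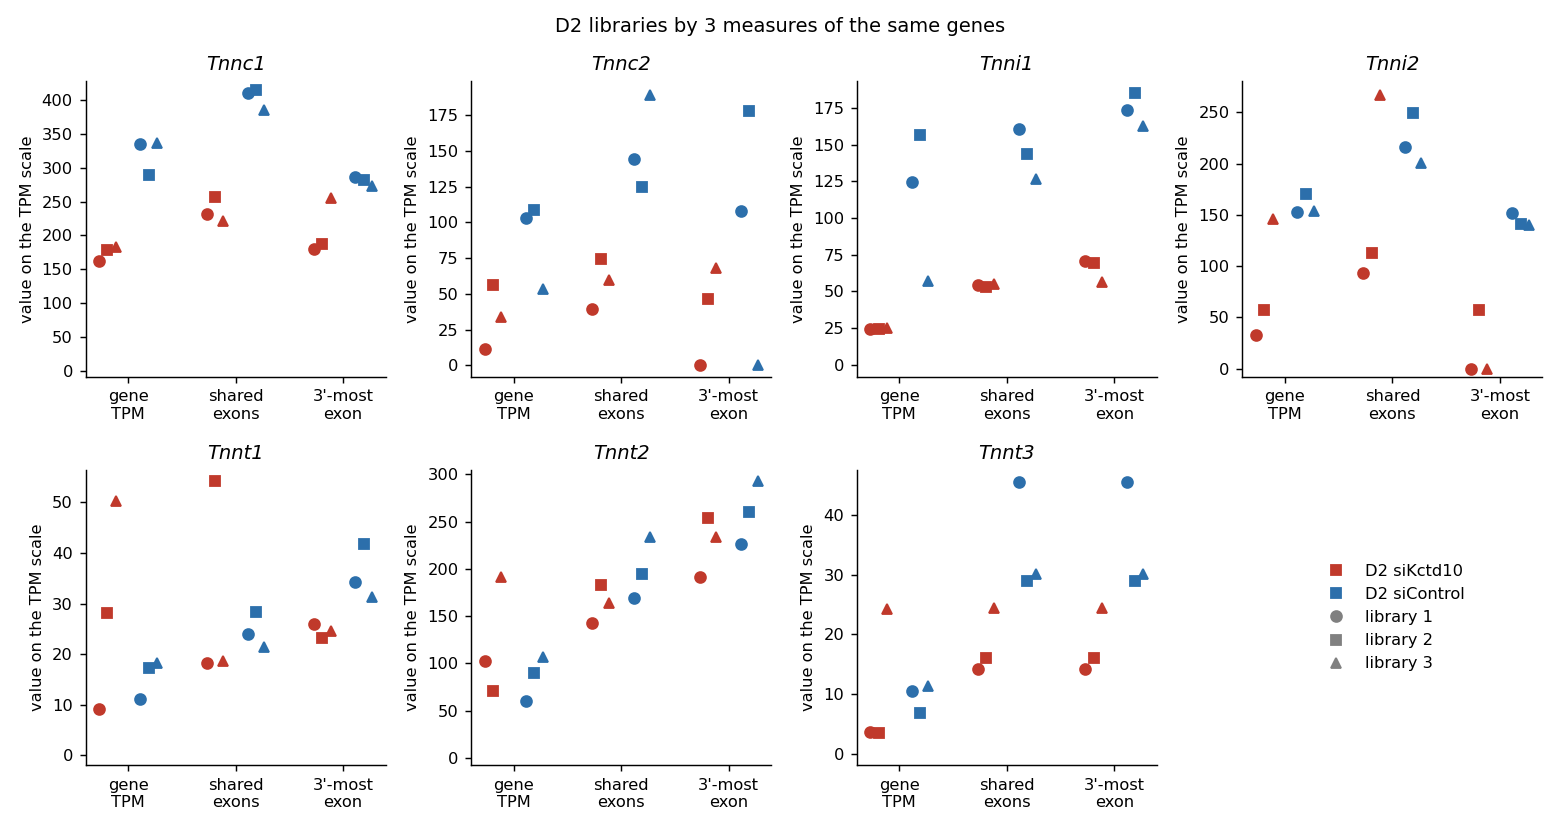
D2 siKctd10 (red) and D2 siControl (blue) libraries for each member by 3 measures on the TPM scale: gene TPM, coverage of exons above 0 in all 6 D2 libraries (shared exons), and coverage of the 3'-most exon. Tnni1 and Tnnc1 separate the groups by all 3 measures, whereas for Tnnt1, Tnnt2 and Tnnt3 library 3 of siKctd10 is the highest of the 6 by TPM and is below the highest siControl library by the 3'-most exon.

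Summed by subunit, troponin I came to 57.6, 81.1 and 171 TPM in D2 siKctd10 libraries, against 277, 326 and 211 TPM in D2 siControl libraries. Troponin C came to 173, 235 and 217 TPM in D2 siKctd10 libraries, against 437, 398 and 390 TPM in D2 siControl libraries. Troponin T came to 116, 102 and 266 TPM in D2 siKctd10 libraries, against 82.4, 113.5 and 136.5 TPM in D2 siControl libraries. The sums of troponin I and C did not overlap between the siRNA groups and those of troponin T did, and these sums are given with no test.

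Within a subunit, the paralogs were set against each other inside each library, slow or cardiac over fast. Tnni1 made up 42.8, 29.9 and 14.7% of troponin I in D2 siKctd10 libraries, against 44.8, 47.9 and 27.0% in D2 siControl libraries. Tnnt2 made up 88.8, 69.0 and 72.0% of troponin T in D2 siKctd10 libraries, against 73.6, 78.8 and 78.2% in D2 siControl libraries, and at least 88.9% in all D0 libraries. Tnnc1 made up 93.5, 76.0 and 84.4% of troponin C in D2 siKctd10 libraries, against 76.4, 72.6 and 86.3% in D2 siControl libraries. By TPM the fast gene was the larger share of troponin I in all 6 D2 libraries, and the cardiac or slow gene was the larger share of troponin T and C. By the 3'-most exon the order of the troponin I genes was the opposite in all 6, with Tnni1 above Tnni2, whose exon was listed at 0 in siKctd10 libraries 1 and 3. The libraries of the siRNA groups overlapped for all 3 subunits.

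**Figure D5:**
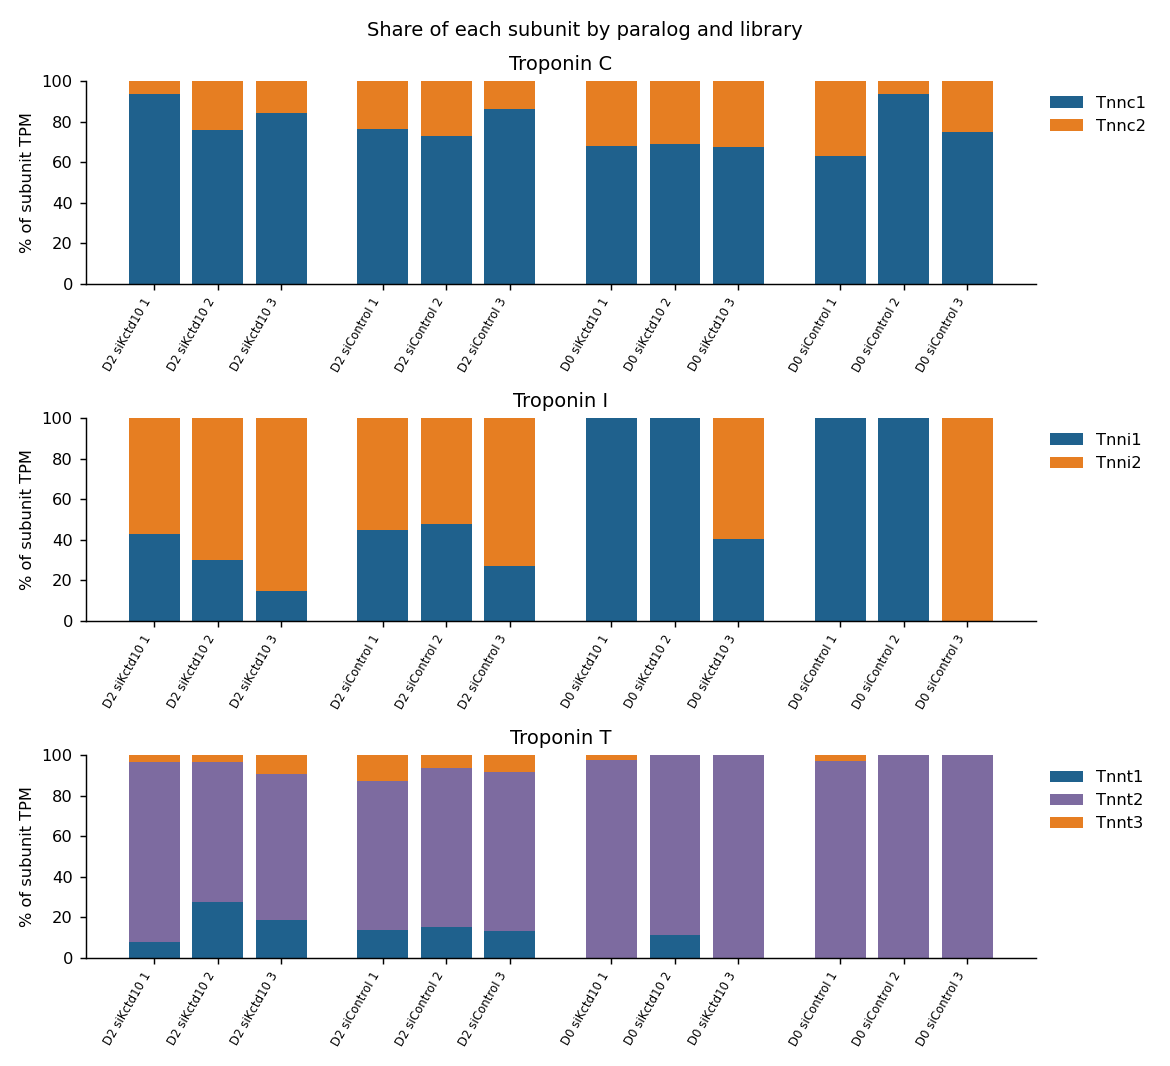
Share of each subunit's summed TPM (%) taken by each paralog in every library, for troponin C, I and T. Tnnt2 takes at least 69.0% of troponin T and Tnnc1 at least 62.8% of troponin C in all 12 libraries, while the troponin I shares at D0 rest on sums of at most 1.74 TPM.

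None of 12 tests of these ratios could pass, since the smallest two-sided p that an exact permutation test of 3 against 3 libraries can give is 0.1. The mean log2 ratio of Tnni1 to Tnni2, as (TPM + 1), was -1.37 ± 1.06 in D2 siKctd10 libraries and -0.613 ± 0.706 in D2 siControl libraries (SD, n = 3 each, exact permutation p = 0.4). Tnnt1 over Tnnt3 was 1.61 ± 0.941 in D2 siKctd10 libraries and 0.644 ± 0.568 in D2 siControl libraries (SD, n = 3 each, exact permutation p = 0.3). Tnnt2 over Tnnt3 was 3.80 ± 0.787 in D2 siKctd10 libraries and 3.02 ± 0.564 in D2 siControl libraries (SD, n = 3 each, exact permutation p = 0.3). Tnnc1 over Tnnc2 was 2.60 ± 1.06 in D2 siKctd10 libraries and 1.90 ± 0.642 in D2 siControl libraries (SD, n = 3 each, exact permutation p = 0.5). The smallest raw p of the 12 was 0.1, for Tnnt1 over Tnnt3 at D2 against D0 in siControl cells (exact permutation), and the adjusted values over the 12 ran from 0.67 to 1.

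Other genes of the thin filament showed both directions after knockdown. Of 18 tested in a list of 19, 2 were higher and 4 lower in D2 siKctd10 cells (limma), where 2.83% of all genes were called higher and 1.92% lower, and the list's middle log2 fold change was -0.095, against 0.079 for all genes. Tmod1, which caps the pointed end of the filament, averaged 2.27 ± 1.23 TPM in D2 siKctd10 libraries and 41.5 ± 7.83 TPM in D2 siControl libraries (SD, n = 3 each, limma adjusted p = 0.00014). Klhl41, which stabilises nebulin, averaged 51.2 ± 12 TPM in D2 siKctd10 libraries and 113 ± 6.01 TPM in D2 siControl libraries (SD, n = 3 each, limma adjusted p = 0.0054). Acta2, smooth muscle actin, which is also on the smooth muscle marker list, was higher, at 2480 ± 401 TPM in D2 siKctd10 libraries and 1310 ± 154 TPM in D2 siControl libraries (SD, n = 3 each, limma adjusted p = 0.0045). The other 3 called, named after their values were seen, were Tpm1 at 968 TPM, Actc1 at 694 TPM and the actin-severing Cfl2 at 408 TPM in D2 siKctd10 libraries, against 591 TPM for Tpm1, 1170 TPM for Actc1 and 575 TPM for Cfl2 in D2 siControl libraries. At D0, 3 of 18 were higher and none lower, where 1.48% of all genes were called higher, and the 3 were Acta2, skeletal actin Acta1 and the tropomyosin gene Tpm1. Their mean levels were 1560 TPM for Acta2, 169 TPM for Acta1 and 823 TPM for Tpm1 in D0 siKctd10 libraries, against 600 TPM for Acta2, 87.4 TPM for Acta1 and 547 TPM for Tpm1 in D0 siControl libraries. The interaction called 2 of 18 lower, Tmod1 at -3.54 (limma adjusted p = 0.0052) and Acta1 at -1.53 (limma adjusted p = 0.016), where 0.367% of all genes were.

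Genes of slow and fast fibres were also examined by list. Of 10 slow fibre and cardiac-type genes tested (of 16), 1 was lower in D2 siKctd10 cells, Myoz2, a Z-disc protein of slow muscle, at 4.17 ± 2.02 TPM against 12.3 ± 4.10 TPM in D2 siControl libraries (SD, n = 3 each, limma adjusted p = 0.022). The middle log2 fold change of these 10 was -0.167, against 0.079 for all genes, of which 1.92% were called lower. Of 11 fast fibre genes tested (of 14), 3 were lower in D2 siKctd10 cells, beside the same 1.92% of all genes, with a middle log2 fold change of -0.878. They were Casq1, which stores calcium in the sarcoplasmic reticulum, at 2.28 ± 0.292 TPM against 8.79 ± 1.16 TPM in D2 siControl libraries, the calcium pump Atp2a1 at 39.1 ± 11.1 TPM against 99.6 ± 9.22 TPM in D2 siControl libraries, and the glycolytic enzyme Pgam2 at 10.1 ± 4.27 TPM against 25.5 ± 3.76 TPM in D2 siControl libraries (SD, n = 3 each). The adjusted limma p was 0.00027 for Casq1, 0.0061 for Atp2a1 and 0.029 for Pgam2. Whether the lists differ was not tested.

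Most genes of these lists were higher at D2. At D2 against D0, 10 of 11 fast fibre genes were higher in siKctd10 cells and 10 of 11 in siControl cells, and 6 of 10 slow fibre and cardiac-type genes in each, where 23.1% of all genes were called higher in siKctd10 cells and 21.4% in siControl cells. Of 18 thin filament genes, 10 were higher in siKctd10 cells and 11 in siControl cells, and none of these 3 lists had a member called lower, where 13.3% of all genes were called lower in siKctd10 cells and 14% in siControl cells. Cardiac actin Actc1 averaged 694 ± 25.3 TPM in D2 siKctd10 libraries and 15.8 ± 2.13 TPM in D0 siKctd10 libraries, and 1170 ± 53.6 TPM in D2 siControl libraries and 18.1 ± 4.25 TPM in D0 siControl libraries (SD, n = 3 each). The fast light chain Mylpf averaged 649 ± 91.8 TPM in D2 siKctd10 libraries and 4.73 ± 4.27 TPM in D0 siKctd10 libraries, and 1170 ± 66.3 TPM in D2 siControl libraries and 5.12 ± 4.11 TPM in D0 siControl libraries (SD, n = 3 each).

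The genes most like each member were found by the root mean square difference of centred log2(TPM + 1) over the 12 libraries of all 4 groups, as a description with no test. Tnnc1 lay nearest to Ckm, muscle creatine kinase, at 0.388, and to the predicted gene Gm17455 at 0.433. Tnnc2 lay nearest to Atp2a1 at 0.661 and to Hfe2, hemojuvelin, at 0.664. Tnni1 lay nearest to the small muscle protein gene Smpx at 0.532 and to Ly6c2 at 0.623, and Tnni2 to embryonic myosin Myh3 at 0.593 and to Cilp at 0.709. Tnnt3 lay nearest to slow myosin Myh7 at 0.385 and to Chrdl1 at 0.424, Tnnt1 to Nkd2 at 0.506 and Gm28653 at 0.566, and Tnnt2 to the sarcomere-associated Trim55 at 0.561 and to Ano5 at 0.571. Between members the same measure ran from 0.826 for Tnni1 with Tnnc1 to 2.01 for Tnnt2 with Tnni2, and each member had genes outside the family nearer to it than any other member. The outside genes were all kept genes with a mean of at least 5 TPM. They far outnumber the members, so a nearer outside gene says nothing of whether the members move together.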

How the data were processed

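The deposited tables are StringTie transcript estimates on mm10, 1 per library, with TPM and exon coverage, made by the authors with StringTie 1.3.3b per the file headers (1.1.3 per the submitters' processing notes, which also name HISAT, SAMtools and DESeq2). Library depth was estimated from coverage and pairs of 202 bases. Of 63759 transcripts, 88.0% were assigned to GENCODE genes on the same strand, through an identical intron chain where there was one and otherwise through exons covering 50% or more of the transcript, and TPM was summed per gene. Unmatched transcripts held 3.82 to 4.63% of the deposited TPM. Genes reaching 1 TPM in 3 or more libraries were fitted as log2(TPM + 1) with limma 3.58.1 in R 4.3.3 (4 group means, mean-variance trend, robust, Benjamini-Hochberg adjustment over 13076 genes, threshold 0.05). Some library listed 666 of them at 0, and a 0 may be a failed estimate. The fit was also run on simulated D2 libraries with independent normal noise. That simulation did not model exons listed at 0 or the D0 libraries, so it does not bear on their effect. Paralog ratios were tested by two-sided exact permutation. From each gene list, at most the 3 called genes with the largest absolute change and 5 TPM or more on average in the higher group could be named, and for each member the 2 most alike genes. The members and lists were chosen with earlier results of these data known. Alternatives covered pseudocount, filters, scaling, voom, matching, groups in the fit, the replicate block, single libraries left out and exon coverage.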

Additional observations from a re-analysis of the deposited data

How the results depend on the processing

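All 7 troponin genes were higher at D2 than D0 for either siRNA when any 1 library was left out; 3'-most exon coverage called 6 in siControl and 5 in siKctd10 cells, and the 2 siKctd10 groups fitted alone called 6. Between siRNAs at D2, the members called were 0 with pseudocount 0.1 and by 3'-most exon coverage, 2 with pseudocount 5, with voom and over shared exons, and 0 to 2 without 1 library. The shared-exon fit used the D2 libraries only, unlike the 3'-most exon fit. Intron matching left Tnni1 and Tnnt2 out of the test, so its 0 of 5 members says nothing of Tnni1, and their ratios were not run under it. Tnni1 had an adjusted p of 0.24 with pseudocount 0.1, at a log2 fold change of -2.06, and 0.071 in a fit of 2 groups (limma). Its log2 fold change ran from -2.45 to -1.73 without 1 library. Replicate numbers were not taken to pair the libraries. Deviations from the group means correlated at -0.021 to 0.034 between same-numbered libraries, apart from those between days in siKctd10 cells. There the values were 0.091, 0.046 and 0.202 for libraries 1, 2 and 3. On the second principal component the siKctd10 libraries also fell in the order 1, 2, 3 at both days, so a link by number in these cells is possible. With the replicate block the members called between siRNAs stayed at 1 at D2 (Tnni1, limma adjusted p = 0.034) and 0 at D0, and interaction calls over all genes were 42 against 97. All 7 members were still called higher at D2 than at D0 in siKctd10 cells.

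These log2 values changed sign. At D0 between siRNAs, leaving out 1 library gave -0.061 to 1.24 for Tnnt2, -0.127 to 0.102 for Tnnt3, -0.535 to 0.12 for Tnni1 and -0.484 to 0.247 for Tnni2; without both siKctd10 libraries numbered 3, Tnnt2 was -0.061 and Tnnt3 0.026; voom gave 0.087 for Tnni1, and the 3'-most exon 0.195 for Tnni2 and -0.086 for Tnnc1. At D2, the 3'-most exon gave -0.516 for Tnnt1 and -0.199 for Tnnt2, shared exons -0.282 for Tnnt2, and Tnnt3 ran from -1.18 to 0.067 without 1 library. The interaction ran from -0.241 to 0.92 for Tnnt1, -0.822 to 0.476 for Tnnt2 and -1.15 to 0.092 for Tnnt3 without 1 library; for Tnnt1 it was -0.519 with pseudocount 0.1, -0.691 with voom, -0.516 by the 3'-most exon and -0.406 without both libraries numbered 3, where Tnnt2 was 0.09. Among ratios at D0, Tnni1 over Tnni2 was 0.054 with pseudocount 0.1 and -0.782 to 0.599 without 1 library, Tnnt1 over Tnnt3 -0.026 to 0.622 and Tnnt2 over Tnnt3 -0.087 to 1.21. Without 1 library, Tnnc1 over Tnnc2 was -0.96 to 0.07 at D0, and Tnnt2 over Tnnt3 at D2 against D0 in siControl cells was -0.537 to 0.02. At D2, Tnni1 over Tnni2 was 3.83 by the 3'-most exon, where Tnni2 was listed at 0 in 2 siKctd10 libraries. For D2 against D0 in siControl cells, Tnnt2 over Tnnt3 was 1.07 with pseudocount 5, and Tnnc1 over Tnnc2 -0.032 with pseudocount 0.1 and -0.81 by the 3'-most exon. The cause was not tested. The middle log2 fold change of all genes at D2 over D0 in siKctd10 cells was 0.004 with median-ratio scaling and -0.021 with quantile normalization, against 0.118, and in siControl cells -0.033 with quantile normalization, against 0.091. Median-ratio scaling gave 2454 higher and 2284 lower genes in siKctd10 cells, against 3021 and 1735, and at D0 188 and 207 between siRNAs, against 194 and 126; quantile normalization gave 2219 and 2309 in siControl cells, against 2803 and 1836. The estimates list many exons at 0, which limits the precision of every level.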

Other observations

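Developmental muscle genes were examined as a list of 8. All 8 were higher at D2 than at D0 in siKctd10 cells and all 8 in siControl cells (limma), where 23.1% of all genes were called higher in siKctd10 cells and 21.4% in siControl cells. In D2 siKctd10 cells 2 of the 8 were lower than in D2 siControl cells, as were 1.92% of all genes: perinatal myosin Myh8, at 5.31 ± 0.926 TPM in siKctd10 libraries and 17.1 ± 1.36 TPM in siControl libraries, and cardiac actin Actc1, at 694 ± 25.3 TPM in siKctd10 libraries and 1170 ± 53.6 TPM in siControl libraries (SD, n = 3 each). The limma adjusted p was 0.00022 for Myh8 and 0.019 for Actc1.

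Of 17 regulators of muscle and fibre type genes tested (of 19), 4 were lower in D2 siKctd10 cells and none higher, where 1.92% of all genes were called lower and 2.83% higher. Mef2c, a transcription factor of muscle genes, averaged 6.61 ± 2.54 TPM in D2 siKctd10 libraries and 20.7 ± 4.81 TPM in D2 siControl libraries (SD, n = 3 each, limma adjusted p = 0.0058). Myogenin (Myog), which drives terminal differentiation, averaged 192 ± 20.8 TPM in D2 siKctd10 libraries and 324 ± 36.8 TPM in D2 siControl libraries (SD, n = 3 each, limma adjusted p = 0.016). Myf5 averaged 114 ± 0.983 TPM in D2 siKctd10 libraries and 171 ± 18.0 TPM in D2 siControl libraries (SD, n = 3 each, limma adjusted p = 0.005). The remaining gene called, named after its values were seen, was Myod1, at 190 TPM in D2 siKctd10 libraries and 245 TPM in D2 siControl libraries. Of 12 splicing regulators listed, 2 were lower in D2 siKctd10 cells, against the same 1.92% of all genes. They were Rbfox1, at 0.69 TPM in siKctd10 libraries and 2.12 TPM in siControl libraries (also named after its values were seen), and Rbm24, at 67.5 ± 3.76 TPM in siKctd10 libraries and 111 ± 3.03 TPM in siControl libraries (SD, n = 3 each, limma adjusted p = 0.014). The part of these regulators in the troponin values was not tested.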
